A study of Mus musculus with 6 samples.

Results

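Macrophages are recruited, kept alive and instructed by a small set of secreted proteins, and 10 genes for such proteins were followed here in nuclei selected from mouse hearts that overexpressed (OE) an active form of the transcriptional coactivator YAP. The genes were Csf1 and Il34, both ligands of the macrophage growth factor receptor; the chemokines Ccl2, Ccl7, Cxcl1, Cxcl12 and Cx3cl1; and the cytokines Il6, Il33 and Lif. They were the 10 rows, of 54532 genes in the count table, whose Ensembl IDs carry these symbols in GENCODE M21. In YAP5SA OE CMs (cardiomyocytes), Ccl2, Ccl7, Lif and Cxcl12 rose against both GFP and YAP6SA, by 9.13-fold, 7.38-fold, 7.0-fold and 2.10-fold against GFP. The calls of Ccl7 and Cxcl12 against YAP6SA were lost when certain libraries were left out. Summed markers of macrophages and of epicardium, the latter mostly Wt1 in YAP5SA, were also higher in YAP5SA than in GFP in both batches. Within the batches both sums lay above GFP in YAP6SA too, by less. The part of these cells in the rises of the members was not tested. In YAP6SA OE CMs none of the members passed the main edgeR test against GFP. Csf1 (lower) passed in some other fits, and Cxcl12 (higher) only in that of the GFP and YAP6SA libraries alone. The study, which used edgeR with a batch covariate, names Csf1 among the genes down-regulated in YAP6SA. Il34, Cx3cl1, Il6 and Il33 missed the filter on low values in every group, and were called in no comparison in a fit without it.

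Wild-type ICR mice received 1e+11 viral genomes of AAV9 under the skin at 6 d of age and were sampled at 9 d. The virus carried GFP, YAP6SA or YAP5SA behind the cardiac troponin T (cTnT) promoter, which drives expression in CMs. YAP5SA has serine-to-alanine changes at the sites that the Hippo kinases LATS1/2 phosphorylate, and YAP6SA has these and a further one at a residue that YAP needs to bind the TEAD transcription factors. All groups, the GFP controls included, therefore carried the same vector, dose and promoter. Nuclei were enriched for CMs by pull-down with an antibody against PCM-1, a perinuclear protein, and polyadenylated nuclear RNA was sequenced without keeping the strand. Each of the 3 groups had 2 libraries, 1 in each of 2 batches, where the replicate number was taken as the batch number. Gene counts were 18832871 and 16362077 in GFP (batches 1 and 2), 19615627 and 17176301 in YAP6SA, and 14552847 and 17197114 in YAP5SA. Values are in CPM (gene counts scaled to a common library size with TMM factors), always in the order batch 1, batch 2. With 2 libraries a group, an order of groups without overlap is a description and was not tested. A count of 3, which a count of 0 allows, was worth 0.153 to 0.199 CPM, and this limit covers counting error alone.

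The growth factors CSF1 and IL-34 act through the receptor CSF1R on macrophages and their precursors. CCL2 and CCL7 draw monocytes through CCR2, CXCL1 draws neutrophils through CXCR2, CXCL12 acts on CXCR4 and is bound and removed by the scavenging receptor ACKR3, and CX3CL1 is the ligand of CX3CR1. LIF and IL-6 signal through receptors that share the subunit gp130 (gene Il6st), which activates JAK kinases and STAT3 and induces the inhibitor SOCS3, and IL-33 acts through IL1RL1. In the heart these factors come from CMs, fibroblasts, endothelial cells and resident macrophages.

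The stretch upstream of the gene start is where transcription factors of these pathways may bind, and it is shown for Csf1, Cxcl12 and Lif, which differ in how they moved. The 250 bases before the start, from RefSeq on GRCm38.p6, are given 5′ to 3′ on the strand of the gene. Of the 10 genes, 7 had such a sequence in the RefSeq table used here; those without an entry were Il34, Ccl2 and Ccl7. The RefSeq start lay inside the GENCODE gene by 11 bases for Lif, 4 for Cxcl1 and 171 for Cx3cl1, so these windows hold some GENCODE gene bases. For Csf1 and Cxcl12 both starts were the same. Capitals mark a match to an NF-kB or AP-1 motif.
Csf1 (chr3:107760470-107760719, minus strand): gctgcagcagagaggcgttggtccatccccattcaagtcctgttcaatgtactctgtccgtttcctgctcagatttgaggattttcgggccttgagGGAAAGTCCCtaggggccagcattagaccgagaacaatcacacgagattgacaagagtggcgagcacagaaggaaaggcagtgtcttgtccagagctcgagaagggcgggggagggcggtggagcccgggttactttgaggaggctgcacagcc
Cxcl12 (chr6:117168285-117168534, plus strand): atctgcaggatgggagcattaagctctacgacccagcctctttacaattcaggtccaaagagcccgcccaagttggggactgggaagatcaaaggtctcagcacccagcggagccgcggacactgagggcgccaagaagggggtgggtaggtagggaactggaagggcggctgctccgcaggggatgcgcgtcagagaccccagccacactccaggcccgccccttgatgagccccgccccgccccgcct
Lif (chr11:4257318-4257567, plus strand): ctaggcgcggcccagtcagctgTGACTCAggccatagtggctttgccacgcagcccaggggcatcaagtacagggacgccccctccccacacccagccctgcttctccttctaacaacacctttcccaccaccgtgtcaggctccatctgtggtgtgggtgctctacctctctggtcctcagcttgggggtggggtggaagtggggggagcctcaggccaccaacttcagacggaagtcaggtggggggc
Both strands were searched for the TEAD motif GGAATG, the AP-1 motif TGANTCA, the STAT motif TTCNNNGAA, and the NF-kB and CArG box motifs, and matches to different motifs were allowed to overlap. In the capitals, Csf1 held an NF-kB match that began 154 bases before the start, and Lif an AP-1 match that began 228 bases before it, whereas the Cxcl12 window held no match to any of the motifs. Cxcl1, not printed, held 2 overlapping NF-kB matches from 71 and 70 bases before the start, Il6 an AP-1 match at 249 and an NF-kB match at 44 bases, Il33 a TEAD match at 131 bases and, before a second start, another at 107 bases, and Cx3cl1 none. Over all 32851 windows of this length, 12.6% held the TEAD motif, 6.75% the AP-1, 7.02% the STAT, 3.90% the NF-kB and 1.47% the CArG box motif. A match here describes letters only.

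A filter on low values, a median log2 CPM over 1 in at least 1 group, left 13323 genes, among them 6 of the 10 members. Csf1, Ccl2, Cxcl12 and Lif passed it in every group, Ccl7 in YAP6SA and YAP5SA, and Cxcl1 in YAP5SA only, so that the last 2 came in through groups in which they were higher and the 6 do not stand for all 10. Genes were compared with edgeR's quasi-likelihood test in one fit of all 6 libraries with terms for group and batch, and FDR stands for p adjusted after Benjamini and Hochberg across the 13323 genes, called under 0.05. Of all genes, 12.8% were called higher and 9.18% lower in YAP5SA than in GFP, 9.0% higher and 5.68% lower in YAP5SA than in YAP6SA, and 0.045% higher and 0.0% lower in YAP6SA than in GFP. Against these shares, 4 members were called higher and 0 lower in each YAP5SA comparison, and 0 were called in the YAP6SA comparison. There, 2 (Cxcl12 and Cxcl1) had an unadjusted p under 0.05, and DESeq2 and the likelihood ratio test called 0 as well. Without the filter, however, Csf1 was called lower there, where 0.131% of all genes were. With only the GFP and YAP6SA libraries, Csf1 was called lower and Cxcl12 higher, beside 0.585% lower and 1.49% higher of all genes. The YAP5SA comparisons share the YAP5SA libraries and those with GFP share the GFP libraries, so their values are not independent. The median log2 fold change of the tested members was 0.55 for YAP6SA against GFP, 2.40 for YAP5SA against GFP and 1.66 for YAP5SA against YAP6SA, beside 0.0018, -0.0031 and -0.013 over all genes tested. Without the filter, with all 10 members in the fit, these medians were 0.50, 1.56 and 0.63.

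**Figure D1:**
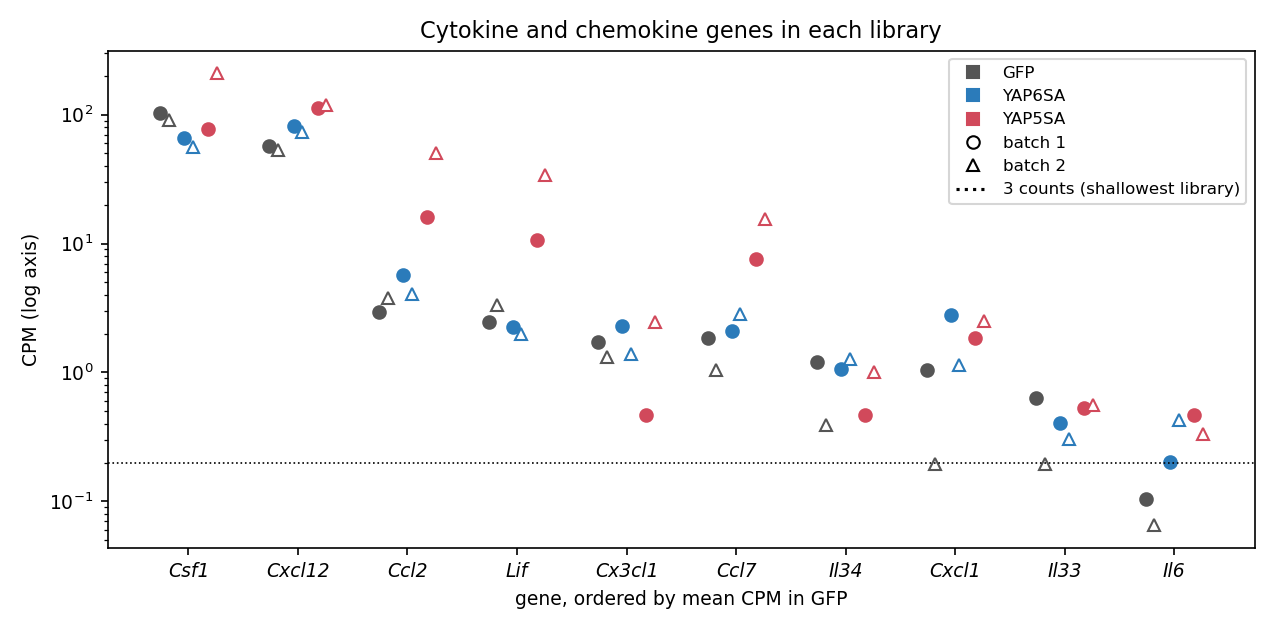
CPM (log axis) of the 10 genes, ordered by mean CPM in GFP, in each library (colour, group; filled circle, batch 1; open triangle, batch 2); the dotted line is the level of 3 counts in the library with the fewest counts. The YAP5SA libraries lie above all others for Ccl2, Ccl7, Lif and Cxcl12, and Il6 lies at or near the line in every group.

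Per kb of exon, so that genes of different length can be set side by side, Csf1 was the most abundant member in GFP, at 18.4 ± 1.61 CPM per kb (mean ± SD, n = 2 libraries). Cxcl12 followed at 6.76 ± 0.409, Ccl2 at 2.96 ± 0.524, Ccl7 at 1.80 ± 0.702 and Lif at 0.667 ± 0.140 CPM per kb, and up to here no 2 neighbours overlapped. Il34 (0.409), Cx3cl1 (0.387), Cxcl1 (0.333) and Il33 (0.143 CPM per kb) came next, each overlapping its neighbours in this order, Il34 also with Lif. Il6 was the lowest, at 0.0351 CPM per kb, below both values of Il33. In YAP5SA the order at the top was another, with Ccl2 at 29.1 ± 21, Csf1 at 27.1 ± 17.5, Ccl7 at 14.3 ± 6.89 and Cxcl12 at 14.2 ± 0.511 CPM per kb, and each of these neighbours overlapped. Lif followed at 5.14 ± 3.81 and Cxcl1 at 1.17 ± 0.252 CPM per kb, while Il34, Cx3cl1, Il33 and Il6 stayed between 0.165 and 0.376 CPM per kb. In YAP6SA the order was Csf1 (11.6 ± 1.35), Cxcl12 (9.45 ± 0.693), Ccl2 (4.29 ± 1.02), Ccl7 (3.08 ± 0.674), Cxcl1 (1.05 ± 0.621), Il34 (0.598 ± 0.0739), Lif (0.487 ± 0.0387), Cx3cl1 (0.469 ± 0.161), Il6 (0.129 ± 0.0643) and Il33 (0.123 ± 0.0254 CPM per kb). Overlapping neighbours in YAP6SA were Cxcl1 with Il34, Lif with Cx3cl1, and Il6 with Il33.

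Csf1 (ENSMUSG00000014599, chromosome 3 of GRCm38, 107741048 to 107760469, minus strand) encodes the growth factor on which most tissue macrophages depend. It had 1966 and 1399 counts in GFP, 1303 and 927 in YAP6SA, and 1177 and 3724 in YAP5SA, which is 103 and 91.3, 66.3 and 56.2, and 78.0 and 209 CPM. Both YAP6SA libraries lay below both GFP libraries, and the YAP5SA libraries lay on either side of them. The log2 fold change of YAP6SA against GFP was -0.67 (standard error 0.33, edgeR FDR 0.842), with -0.64 in batch 1 and -0.70 in batch 2. YAP5SA against GFP came to 0.47 (standard error 0.34, edgeR FDR 0.341), with -0.41 in batch 1 and 1.19 in batch 2, so the direction turned between batches. YAP5SA against YAP6SA came to 1.14 (standard error 0.34, edgeR FDR 0.0501), with 0.23 and 1.89 within the batches.
The YAP6SA value for Csf1 ran from -1.15 (without YAP6SA replicate 1) to -0.23 (without GFP replicate 1) when a library was left out, with -1.0 without GFP replicate 2 and -0.29 without YAP6SA replicate 2, and its call depended on the fit. In a fit of only the GFP and YAP6SA libraries it was called lower (edgeR FDR 0.00386), where 0.585% of all genes were, and without the filter too (edgeR FDR 0.035), where 0.131% were. The YAP5SA values rested on 1 library: without YAP5SA replicate 2, the log2 fold changes of Csf1 were -0.41 against GFP and 0.26 against YAP6SA, and without YAP5SA replicate 1 they were 1.22 and 1.89. Without GFP replicate 2 the value against GFP was 0.065. The call against YAP6SA was made without GFP replicate 1 (edgeR FDR 0.0203), GFP replicate 2 (0.0247), YAP6SA replicate 1 (0.019) or YAP5SA replicate 1 (5.94e-08), in the fit of only the YAP6SA and YAP5SA libraries (0.0236), without the filter (2.07e-08) and with the likelihood ratio test (0.00979). It was not made without YAP6SA replicate 2 (0.69, edgeR FDR 0.465), without YAP5SA replicate 2 (0.391), without the batch term (0.0646), with RLE scaling (0.05 after rounding) or with DESeq2 (0.232).

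Il34 (ENSMUSG00000031750, chromosome 8, 110741829 to 110805924, minus strand), the other CSF1R ligand, had 23 and 6 counts in GFP, 21 and 21 in YAP6SA, and 7 and 18 in YAP5SA. At 1.21 and 0.392 CPM in GFP, 1.07 and 1.27 in YAP6SA, and 0.464 and 1.01 in YAP5SA, both YAP6SA libraries lay above both YAP5SA libraries, and GFP overlapped both groups. Its exons overlap those of the antisense genes Gm15894 and Gm15895, and without strand their reads cannot be told apart. Csf1r, the receptor of both ligands, was at 20.2 and 27.1 CPM in GFP, 22.4 and 29.0 in YAP6SA, and 22.9 and 37.2 in YAP5SA. Its groups overlapped, and its log2 fold change of YAP5SA against GFP was 0.32 (standard error 0.19, edgeR FDR 0.261). Ptprz1, a receptor tyrosine phosphatase that also binds IL-34, was at 3.10 and 2.09 CPM in GFP, 2.24 and 2.12 in YAP6SA, and 6.62 and 8.01 in YAP5SA. It rose in YAP5SA by 1.5 against GFP and 1.75 against YAP6SA on the log2 scale (edgeR FDR 0.0263 and 0.0198). These calls were lost without GFP replicate 1 (edgeR FDR 0.0516), GFP replicate 2 (0.277) or YAP5SA replicate 2 (0.136) in the first, and without YAP6SA replicate 1 (0.105), YAP6SA replicate 2 (0.189) or YAP5SA replicate 2 (0.103) in the second.

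Ccl2 (ENSMUSG00000035385, chromosome 11, 82035571 to 82037453, plus strand), the principal attractant of monocytes, had 56 and 58 counts in GFP, 112 and 67 in YAP6SA, and 245 and 894 in YAP5SA. That is 2.94 and 3.79 CPM in GFP, 5.70 and 4.06 in YAP6SA, and 16.2 and 50.1 in YAP5SA. Both YAP5SA libraries lay above all others, and the batch 2 library lay well above that of batch 1. Ccl2 rose in YAP5SA by 3.19 against GFP (standard error 0.44, edgeR FDR 0.00148) and by 2.58 against YAP6SA (standard error 0.43, edgeR FDR 0.00469) on the log2 scale. Within batch 1 these differences were 2.42 and 1.49, and within batch 2 they were 3.69 and 3.59. YAP6SA against GFP gave 0.61 (standard error 0.45, edgeR FDR 0.907), with 0.93 and 0.10 within the batches. Without YAP5SA replicate 2, Ccl2 was still called, at 2.24 against GFP (edgeR FDR 0.00122) and 1.70 against YAP6SA (edgeR FDR 0.00959), and without YAP6SA replicate 2 it was at 1.81 against YAP6SA (edgeR FDR 0.0466). Without YAP5SA replicate 1 the values were 3.96 and 3.42, and without YAP6SA replicate 1 that against YAP6SA was 3.38. Gm17268, on the other strand, lies across Ccl2 without sharing an exon.

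Ccl7 (ENSMUSG00000035373, chromosome 11, 82045712 to 82047525, plus strand), another CCR2 ligand, had 35 and 16 counts in GFP, 41 and 47 in YAP6SA, and 114 and 274 in YAP5SA. Its CPM was 1.84 and 1.04 in GFP, 2.09 and 2.85 in YAP6SA, and 7.55 and 15.4 in YAP5SA. The YAP5SA libraries again lay above all others, and the batch 2 library was the higher of them. Ccl7 rose in YAP5SA by 2.88 against GFP (standard error 0.49, edgeR FDR 0.00364) and by 2.18 against YAP6SA (standard error 0.46, edgeR FDR 0.0127) on the log2 scale, with 1.98 and 3.76, and 1.81 and 2.39, within batches 1 and 2. YAP6SA against GFP gave 0.70 (standard error 0.49, edgeR FDR 0.905). It ran from 0.022 without GFP replicate 2 to 1.6 without GFP replicate 1. The call against GFP held in every fit that left out 1 library, at 2.17 without GFP replicate 2, 2.34 without YAP5SA replicate 2, 3.46 without YAP5SA replicate 1 and 3.76 without GFP replicate 1, whereas the call against YAP6SA was lost without YAP6SA replicate 1 (2.11, edgeR FDR 0.0546), YAP6SA replicate 2 (2.28, 0.102) or YAP5SA replicate 2 (1.57, 0.103).

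Ccl2 and Ccl7 lie next to each other in a cluster of chemokine genes on chromosome 11, which also holds Ccl11, Ccl12, Ccl8 and Ccl1. Ccl12, the mouse chemokine closest to Ccl2 in its action on monocytes, lies 66.3 kb from the start of Ccl2 and was at 0.789 and 1.70 CPM in GFP, 2.49 and 1.88 in YAP6SA, and 6.03 and 13.3 in YAP5SA. Ccl12 missed the filter in GFP and came in through YAP6SA and YAP5SA, the groups in which it was higher. It rose in YAP5SA by 2.95 against GFP (standard error 0.49, edgeR FDR 0.00359) and by 2.00 against YAP6SA (standard error 0.47, edgeR FDR 0.0204) on the log2 scale. The second call was lost without YAP6SA replicate 2 (1.28, edgeR FDR 0.328) or YAP5SA replicate 2 (1.58, 0.113). Ccl11, which lies between Ccl7 and Ccl12 and encodes an attractant of eosinophils, had 5 counts in GFP of batch 1, 2 in YAP6SA of batch 1 and 0 in the other 4 libraries. Ccl8 had at most 2 counts and Ccl1 at most 1 in any library.
Reads of such related genes could be assigned to the wrong one where their transcripts are identical. The longest identical run between the Ccl2 and Ccl7 transcripts was 23 bases, between Ccl2 and Ccl12 17 bases, and between Ccl7 and Ccl12 11 bases. The first of these is shown because it is the longest stretch that Ccl2 and Ccl7 share.
Ccl2 and Ccl7, shared run: ctctcactgaagccagctctctc

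**Figure D2:**
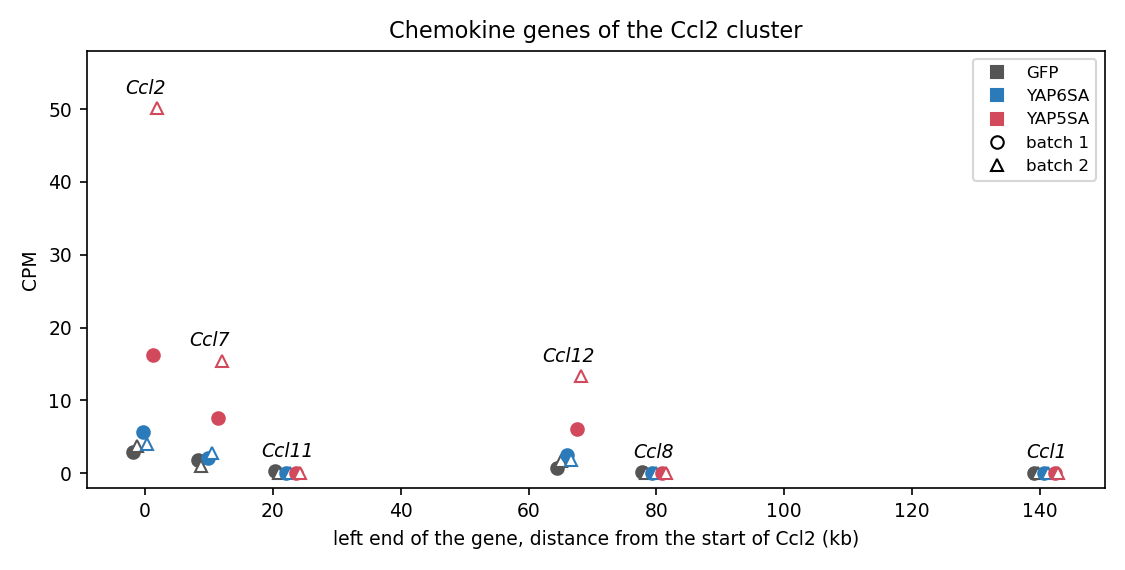
CPM of the genes of the Ccl2 cluster in each library, against the distance in kb of the left end of each gene from the start of Ccl2 (points of a gene are spread sideways for clarity; filled circle, batch 1; open triangle, batch 2). Ccl2, Ccl7 and Ccl12 lie highest in the YAP5SA libraries, and Ccl11, Ccl8 and Ccl1 lie near 0 in all 6.

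Of the other chemokines, 29 genes were listed and 4 passed the filter, and Ccl12 was the only one called in any comparison. Their median log2 fold change was 0.51 for YAP5SA against GFP, and 1.17 without the filter, where 26 genes were fitted, 19 with a value above 0. Of the 29, 7 had at most 3 counts in every library. The most abundant was Cxcl16, a membrane-bound chemokine, at 4.21 and 4.83 CPM in GFP, 6.77 and 8.24 in YAP6SA, and 7.95 and 6.95 in YAP5SA. Ccr2, the receptor of CCL2 and CCL7, had 21 and 19 counts in GFP, 1 and 13 in YAP6SA, and 16 and 79 in YAP5SA. YAP5SA exceeded YAP6SA by 2.76 on the log2 scale (standard error 0.75, edgeR FDR 0.0362) on these low counts, and Ccr2 was not called against GFP, where its differences within the batches were -0.054 and 1.76. The call was lost without YAP6SA replicate 1 (2.14, edgeR FDR 0.142), YAP6SA replicate 2 (4.76, 0.0782), which leaves 1 count in YAP6SA, or YAP5SA replicate 2 (2.13, 0.272), and without the batch term (2.76, 0.103).

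Cxcl1 (ENSMUSG00000029380, chromosome 5, 90891241 to 90893115, plus strand), an attractant of neutrophils, had 20 and 3 counts in GFP, 55 and 19 in YAP6SA, and 28 and 45 in YAP5SA. At 1.05 and 0.196 CPM in GFP, 2.80 and 1.15 in YAP6SA, and 1.85 and 2.52 in YAP5SA, both GFP libraries lay below all others, and the YAP6SA and YAP5SA libraries overlapped. Against GFP, YAP6SA differed by 1.66 on the log2 scale (standard error 0.69, edgeR FDR 0.809) and YAP5SA by 1.99 (standard error 0.70, edgeR FDR 0.0687). The second was called without GFP replicate 1 (3.28, edgeR FDR 0.049), whose removal leaves a single GFP library with 3 counts, or without YAP5SA replicate 1 (3.07, 0.00413), and was 1.29 without GFP replicate 2 and 1.02 without YAP5SA replicate 2. With all 6 libraries it was called by the likelihood ratio test (0.00988) and without the filter (edgeR FDR 0.0203), and not by DESeq2 (0.0571). The YAP6SA value moved to 3.04 when GFP replicate 1 was left out and to 1.06 when GFP replicate 2 was, and was called in neither fit. YAP5SA against YAP6SA gave 0.33 (standard error 0.62, edgeR FDR 0.765), and differed in sign between batches, at -0.57 and 1.07. Its receptor gene Cxcr2 had at most 2 counts in any library.

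Cxcl12 (ENSMUSG00000061353, chromosome 6, 117168535 to 117181367, plus strand) encodes a chemokine that retains and guides CXCR4-bearing cells. It had 1096 and 810 counts in GFP, 1597 and 1208 in YAP6SA, and 1702 and 2117 in YAP5SA, or 57.6 and 52.9, 81.2 and 73.2, and 113 and 119 CPM. The groups did not overlap and stood in the order GFP, YAP6SA, YAP5SA, and the libraries of a group lay closer together than those of Ccl2, Ccl7 or Lif in YAP5SA. Cxcl12 rose in YAP5SA by 1.07 against GFP (standard error 0.15, edgeR FDR 0.00144) and by 0.59 against YAP6SA (standard error 0.15, edgeR FDR 0.026) on the log2 scale, with 0.97 and 1.16, and 0.47 and 0.70, within batches 1 and 2. YAP6SA against GFP gave 0.48 (standard error 0.15, edgeR FDR 0.611), with 0.49 and 0.47 within the batches, and was called higher in the fit of only those 4 libraries (edgeR FDR 0.0482), where 1.49% of all genes were. The call against YAP6SA was lost without YAP6SA replicate 1 (0.65, edgeR FDR 0.108), YAP6SA replicate 2 (0.52, 0.316) or YAP5SA replicate 2 (0.49, 0.0705).
Ackr3, the receptor that takes up and removes CXCL12, moved the other way. It was at 53.1 and 56.3 CPM in GFP, 72.1 and 55.5 in YAP6SA, and 28.0 and 16.3 in YAP5SA, with both YAP5SA libraries below all others. Ackr3 fell by 1.35 against GFP and by 1.55 against YAP6SA on the log2 scale (standard error 0.21 for both, edgeR FDR 0.00252 and 0.00188), and was still called in every alternative. The signalling receptor gene Cxcr4 was at 2.73 to 4.21 CPM in all libraries, and its log2 fold change of YAP5SA against GFP was -0.35 (standard error 0.41, edgeR FDR 0.575).

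Cx3cl1 (ENSMUSG00000031778, chromosome 8, 94772009 to 94782427, plus strand), a chemokine tethered to the membrane, had 33 and 20 counts in GFP, 45 and 23 in YAP6SA, and 7 and 44 in YAP5SA. The YAP5SA libraries, at 0.464 and 2.47 CPM, were the lowest and the highest of all, and the groups overlapped. Its receptor gene Cx3cr1, a gene of monocytes and macrophages, was at 2.63 and 2.68 CPM in GFP, 3.31 and 3.76 in YAP6SA, and 2.52 and 2.80 in YAP5SA, and was not called. Of the 5 genes listed for ligand processing, all tested, 1 was lower in YAP5SA against GFP and 1 higher against YAP6SA, with medians of -0.064 and -0.22. Among all genes tested, 9.18% were lower against GFP and 9.0% higher against YAP6SA. Adam17, a protease that sheds CX3CL1, CSF1 and other membrane proteins, was the one called lower (log2 fold change -0.51, standard error 0.15, edgeR FDR 0.0358). Its level was 119 and 128 CPM in GFP, 98.7 and 103 in YAP6SA, and 92.3 and 81.3 in YAP5SA. That call was lost without any 1 library other than YAP5SA replicate 1 (edgeR FDR 0.0622 to 0.343), with 4 libraries (0.0652) and without the batch term (0.0537). Mmp14, a membrane-bound matrix protease, was higher in YAP5SA against YAP6SA (0.91 on the log2 scale, standard error 0.21, edgeR FDR 0.0184) and not called against GFP, and this call was lost without YAP6SA replicate 2 (0.72, edgeR FDR 0.291) or YAP5SA replicate 2 (0.69, 0.0648).

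Lif (ENSMUSG00000034394, chromosome 11, 4257557 to 4272514, plus strand), a cytokine of the IL-6 family, had 47 and 51 counts in GFP, 44 and 33 in YAP6SA, and 161 and 608 in YAP5SA. Its CPM was 2.47 and 3.33 in GFP, 2.24 and 2.00 in YAP6SA, and 10.7 and 34.1 in YAP5SA. Both YAP5SA libraries lay above all others, the batch 2 library further than the batch 1 library, and both YAP6SA libraries lay below both GFP libraries. Lif rose in YAP5SA by 2.81 against GFP (standard error 0.42, edgeR FDR 0.00215) and by 3.20 against YAP6SA (standard error 0.44, edgeR FDR 0.00189) on the log2 scale. Within batch 1 the differences were 2.07 and 2.20, and within batch 2 they were 3.32 and 4.02. YAP6SA against GFP gave -0.40 (standard error 0.45, edgeR FDR 0.929). Without YAP5SA replicate 2 the rises of Lif were 1.97 (edgeR FDR 0.0105) and 2.41 (edgeR FDR 0.00293), without YAP5SA replicate 1 they were 3.50 and 3.93, and both calls held in every alternative. Against YAP6SA the rise was 3.85 without YAP6SA replicate 1 and 2.55 without YAP6SA replicate 2.

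Lifr, the receptor to which LIF binds first, was at 99.3 and 144 CPM in GFP, 140 and 108 in YAP6SA, and 118 and 117 in YAP5SA, and Il6st, its gp130 partner, at 112 to 148 CPM in all libraries. Their log2 fold changes of YAP5SA against GFP were -0.043 (standard error 0.20, edgeR FDR 0.905) and 0.017 (standard error 0.15, edgeR FDR 0.953). Osmr, the receptor subunit for the related oncostatin M, was at 27.7 and 32.6 CPM in GFP, 28.2 and 25.9 in YAP6SA, and 76.6 and 200 in YAP5SA. It rose by 2.11 against GFP and 2.23 against YAP6SA on the log2 scale (standard error 0.30 for both, edgeR FDR 0.00169 and 0.00189), and without YAP5SA replicate 2 by 1.39 and 1.54, still called, and without YAP5SA replicate 1 by 2.72 and 2.87. Its ligand gene Osm had 1 and 8 counts in GFP, 4 and 1 in YAP6SA, and 9 and 29 in YAP5SA, and missed the filter. Clcf1, a further ligand that signals through gp130, was at 15.5 and 15.2 CPM in GFP, 17.8 and 16.6 in YAP6SA, and 26.0 and 28.7 in YAP5SA, and rose by 0.83 against GFP (standard error 0.21, edgeR FDR 0.0188). That call was lost without GFP replicate 1 (edgeR FDR 0.0929), GFP replicate 2 (0.18) or YAP5SA replicate 2 (0.0509). Of the 8 other gp130 ligands and receptors, 4 passed the filter, with a median log2 fold change of 0.89 for YAP5SA against GFP.
Socs3, the feedback inhibitor of gp130 signalling, was at 6.36 and 5.62 CPM in GFP, 8.85 and 3.88 in YAP6SA, and 13.7 and 31.0 in YAP5SA. It rose by 1.90 against GFP and 1.81 against YAP6SA on the log2 scale (edgeR FDR 0.0172 and 0.0299). Both calls needed YAP5SA replicate 2: without it the values were 0.87 (edgeR FDR 0.168) and 0.86 (edgeR FDR 0.194). They were also lost without GFP replicate 2 (1.76, edgeR FDR 0.108) and without YAP6SA replicate 2 (0.99, 0.355). Of the 12 genes listed for JAK-STAT and SOCS, all tested, 1 was called higher and 1 lower in each YAP5SA comparison. These counts stand beside 12.8% higher and 9.18% lower of all genes against GFP, and 9.0% and 5.68% against YAP6SA. The medians of the 12 were -0.078 and 0.034. The lower ones were Stat5a against GFP (log2 fold change -0.77, edgeR FDR 0.0404), which was lost without GFP replicate 1 (-0.76, 0.126), GFP replicate 2 (-0.77, 0.158), YAP5SA replicate 2 (-0.36, 0.229) or the batch term (0.0668), and Cish, a STAT5 target and inhibitor, against YAP6SA (-0.78, edgeR FDR 0.0253), which was lost without YAP6SA replicate 1 (-0.43, 0.315). Stat3 was at 128 and 193 CPM in GFP, 211 and 161 in YAP6SA, and 225 and 222 in YAP5SA, with a log2 fold change of 0.49 in YAP5SA against GFP (standard error 0.21, edgeR FDR 0.132).

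**Figure D3:**
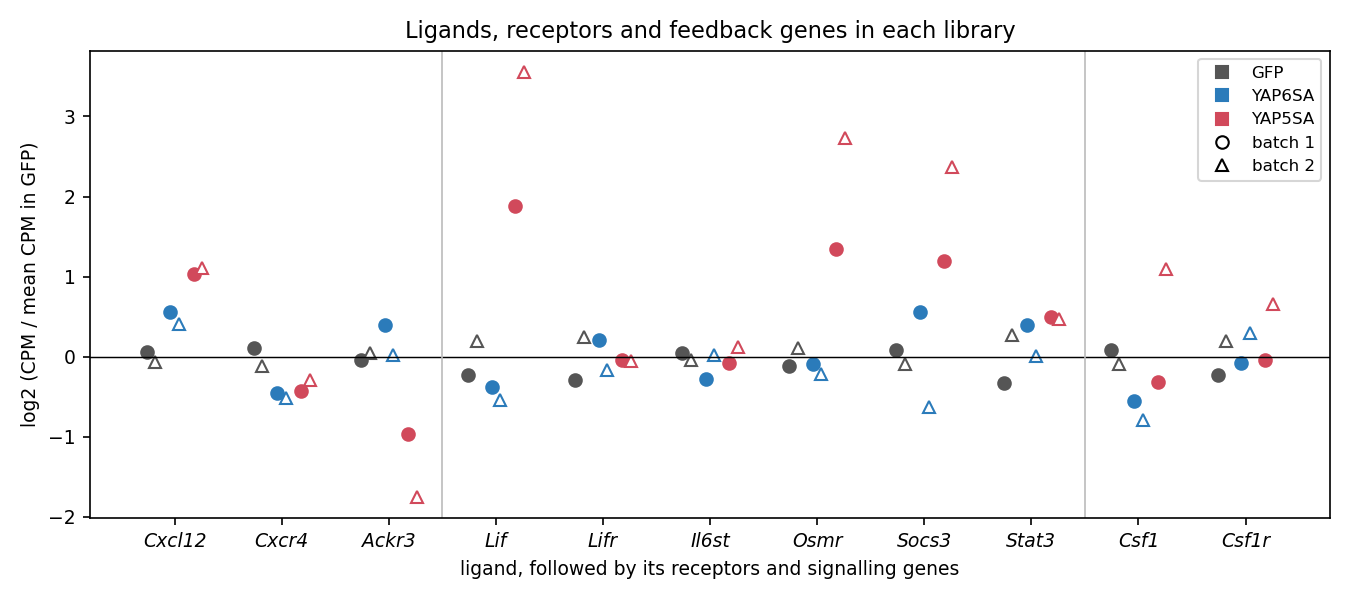
Log2 of CPM relative to the mean CPM in GFP for Cxcl12, Lif and Csf1, each followed by receptor or signalling genes, in each library (colour, group; filled circle, batch 1; open triangle, batch 2). In YAP5SA, Cxcl12 lies above and Ackr3 below the other groups, and Lif, Osmr and Socs3 lie above them, whereas the groups overlap for Lifr, Il6st and Csf1r.

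Il6 (ENSMUSG00000025746, chromosome 5, 30013114 to 30019981, plus strand) had 2 and 1 counts in GFP, 4 and 7 in YAP6SA, and 7 and 6 in YAP5SA. Both GFP libraries were under the level of 3 counts, and no direction was read from so few. Il6ra, its specific receptor, was at 0.392 to 1.35 CPM and missed the filter. Il33 (ENSMUSG00000024810, chromosome 19, 29925114 to 29960718, plus strand), an alarm cytokine held in nuclei, had 12 and 3 counts in GFP, 8 and 5 in YAP6SA, and 8 and 10 in YAP5SA, and the YAP5SA libraries lay within the range of GFP. Its receptor gene Il1rl1 had 2 to 16 counts. Of the 16 receptor genes listed for the members, 9 passed the filter. In YAP5SA, 1 was higher (Ptprz1) and 1 lower (Ackr3) than in GFP, with a median of 0.017. Against YAP6SA, 2 were higher (Ptprz1 and Ccr2) and 1 lower (Ackr3), with a median of 0.15. Among all genes tested, 12.8% were higher and 9.18% lower against GFP, and 9.0% and 5.68% against YAP6SA. In the fit without the filter, Il34, Cx3cl1, Il6 and Il33 were called in no comparison, and their unadjusted p ran from 0.305 to 0.917. Ccr1 and Ccr2 passed the filter in YAP5SA only.

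**Figure D4:**
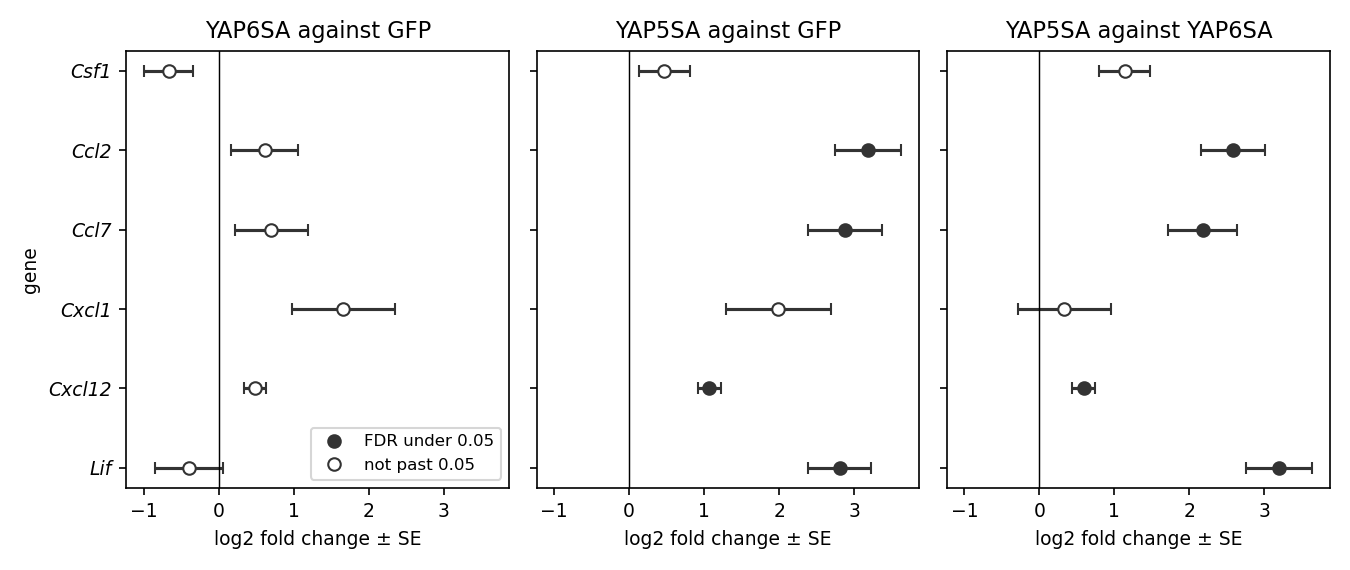
Log2 fold change ± standard error (horizontal axis) of the 6 members that passed the filter in the 3 comparisons, from the edgeR fit of all 6 libraries; filled points have an FDR under 0.05. Ccl2, Ccl7, Cxcl12 and Lif are filled in both YAP5SA comparisons, and no point is filled for YAP6SA against GFP.

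Genes whose CPM ran most closely with a member over the 6 libraries were sought among the 10007 (for Ccl7, 10008) others whose mean log2 CPM reached 3, by Pearson's r of log2 values, which is a description since the points share libraries and groups. For Csf1 they were Pi4k2a (r = 0.999), Baz1a (0.987) and Ascc3 (0.982). For Ccl2 they were Tubb5, a tubulin (0.999), Incenp, a mitotic scaffold (0.996), and Eif3a, a translation factor (0.996). For Ccl7 they were Skp2, which targets cell cycle inhibitors for degradation (0.998), Mad2l1, of the spindle checkpoint (0.996), and Ccn2, a much used YAP target (0.996). For Cxcl12 they were Mafk (0.996), Sae1 (0.992) and Myl4, the atrial myosin light chain (0.992), and for Lif Haus6, a spindle protein (0.999), Vps13a (0.998) and Rangap1 (0.998). The spans differed: Tubb5 ran from 57.2 CPM in a GFP library to 229 in YAP5SA of batch 2, whereas Pi4k2a moved only between 85.4 and 109 CPM.

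Among 17 other myeloid growth factors and inflammatory cytokines, 12 passed the filter. Of these, 6 were called higher and 1 lower in YAP5SA than in GFP, beside 12.8% and 9.18% of all genes tested. Tnf, Il1b and Spp1 passed the filter in YAP5SA only, so that they came in through the group in which they were higher. Tnf and Spp1 are among the 6. The median of the 12 tested, as a log2 fold change, was 0.87, and 0.41 over all 17 without the filter. There 2 were called lower (1519 over all genes), as with DESeq2 (1212) and the likelihood ratio test (1565). The most abundant was Vegfa, a growth factor of vessels, at 2730 and 2930 CPM in GFP, 2770 and 2750 in YAP6SA, and 2000 and 1670 in YAP5SA, where both libraries lay below all others, with differences from GFP of -0.45 and -0.81 on the log2 scale within the batches (edgeR FDR 0.056, and 0.000696 without the filter). Tgfb3, of the TGF-beta family, was at 10.9 and 8.03 CPM in GFP, 16.5 and 9.70 in YAP6SA, and 79.6 and 131 in YAP5SA. It rose by 3.49 against GFP and 3.02 against YAP6SA (standard error 0.32 for both, edgeR FDR 0.000232 and 0.000526), and Tgfb2, of the same family, rose by 2.10 and 1.65 (edgeR FDR 0.000703 and 0.00248) on the log2 scale. All of these were still called in every alternative, with Tgfb3 at 2.80 and 2.35 without YAP5SA replicate 2 and at 4.12 and 3.68 without YAP5SA replicate 1. Tgfb1 rose by 0.84 against GFP (edgeR FDR 0.0332), and Gdf15, a stress-induced member of the same family, by 1.86 (edgeR FDR 0.0098). Gdf15 had 66 and 30 counts in GFP, 161 and 119 in YAP6SA (8.19 and 7.21 CPM), and 121 and 206 in YAP5SA (8.02 and 11.5 CPM), so that YAP6SA too lay above GFP and overlapped YAP5SA. YAP6SA against GFP came to 1.5 (standard error 0.39, edgeR FDR 0.462, and 0.00505 without the filter, where Gdf15 was among 109 genes called higher). The likelihood ratio test called 1 gene of the list, and 54 of all genes, higher there. Spp1, osteopontin, was called higher in YAP5SA (edgeR FDR 0.0197) on 3 and 1 counts in GFP, 8 and 1 in YAP6SA, and 14 and 82 in YAP5SA, and no fold is given against so few counts. Tnf was at 1.37 and 1.76 CPM in GFP, 1.12 and 1.15 in YAP6SA, and 3.05 and 10.1 in YAP5SA, and rose by 1.92 against GFP and 2.35 against YAP6SA (edgeR FDR 0.0265 and 0.0181). Il15, a growth factor of lymphocytes, fell by 0.78 against GFP (edgeR FDR 0.0235). Without YAP5SA replicate 2, the calls of Tgfb1 (0.55, edgeR FDR 0.18), Spp1 (0.275), Il15 (-0.44, 0.142) and Tnf (1.09, 0.32, and against YAP6SA 1.54, 0.183) were lost. Without GFP replicate 2 they were lost too for Tgfb1 (0.77, edgeR FDR 0.253), Gdf15 (1.40, 0.125), Spp1 (0.19), Il15 (-0.67, 0.206) and Tnf (1.57, 0.262), without the batch term for Tgfb1 (0.0518), without GFP replicate 1 for Tgfb1 (0.91, 0.106) and Il15 (-0.88, 0.0585), and without YAP6SA replicate 2 for Tnf against YAP6SA (1.79, 0.267).

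NF-kB is a transcription factor of inflammatory genes, and 15 genes of its pathway were tested. Of these, 4 were called higher and 0 lower in YAP5SA than in GFP, beside 12.8% and 9.18% of all genes tested. The median log2 fold change of the 15 was 0.28, and edgeR called 0 in the other comparisons. The 4 were the subunits Rela (0.55, edgeR FDR 0.0339) and Relb (0.77, edgeR FDR 0.0195), the cofactor Nfkbiz (1.02, edgeR FDR 0.00779) and the inhibitor Tnfaip3 (1.37, edgeR FDR 0.0225). At an unadjusted p under 0.05, 5 of the 15 were higher and 1 lower in YAP5SA than in YAP6SA, and 0 differed between YAP6SA and GFP. DESeq2 and the likelihood ratio test each called 1 of the 15 higher in YAP5SA than in YAP6SA, and edgeR without the filter called 2. Over all genes, these fits called 1227, 1608 and 1591 higher there. None of the 4 calls held without GFP replicate 2 (edgeR FDR 0.0742 to 0.321). Without YAP5SA replicate 2, Rela (0.41, edgeR FDR 0.143), Relb (0.63, 0.0698) and Tnfaip3 (0.93, 0.133) were lost, and without GFP replicate 1, Rela (0.59, 0.143) and Relb (0.71, 0.121). Rela was also lost without YAP6SA replicate 1 (edgeR FDR 0.0526) or 2 (0.0519), with 4 libraries (0.0545), without the batch term (0.0573) and with DESeq2 (adjusted p 0.0511).

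The pull-down selects nuclei and not single cells, so markers of other cell types were followed beside the members. Cardiomyocyte markers were by far the most abundant, with a summed level of 68200 and 88000 CPM in GFP, 66800 and 83800 in YAP6SA, and 57500 and 41200 in YAP5SA, led by Myh6, and none of the 12 was near 0. Of these 12, 2 were called lower in each YAP5SA comparison, where 9.18% of all genes were lower against GFP and 5.68% against YAP6SA. They were Ryr2, the calcium release channel (-0.81 against GFP, edgeR FDR 0.0455), and Pln, the inhibitor of the calcium pump (-1.04 against GFP, edgeR FDR 0.00784). The list's median was -0.63 against GFP. The log2 fold change was negative for 11 of the 12 against GFP and 12 against YAP6SA, and an unadjusted p was under 0.05 for 6 and 8. The number called lower depended on the fit: against GFP it was 5 with DESeq2, 6 with the likelihood ratio test and 7 without the filter, and against YAP6SA it was 6, 7 and 10. Over all genes, these fits called 1212, 1565 and 1519 lower against GFP, and 849, 1155 and 1161 against YAP6SA. They held 13323 genes, and 27396 without the filter. In bulk nuclei, fewer cells of a type and less RNA per cell cannot be told apart. Without GFP replicate 2 neither held (-0.43 and -0.91, edgeR FDR 0.499 and 0.0749), and Ryr2 did not hold without YAP5SA replicate 2 (-0.40, 0.164), YAP6SA replicate 1 (-0.81, 0.101) or YAP6SA replicate 2 (-0.81, 0.105), with 4 libraries (0.0986) or without the batch term (0.074). Against YAP6SA, Ryr2 came to -0.84 (edgeR FDR 0.0496) and was lost with RLE scaling (0.0516), without the batch term (0.0801) and without YAP6SA replicate 1 (0.245), YAP6SA replicate 2 (0.395) or YAP5SA replicate 2 (-0.46, 0.132), and Pln came to -1.0 (edgeR FDR 0.0127) and was lost without YAP6SA replicate 2 (-0.78, 0.226).
The 15 macrophage markers summed to 85.3 and 122 CPM in GFP, 108 and 137 in YAP6SA, and 127 and 192 in YAP5SA, led by Mertk at 12.3 to 30.4 CPM. The YAP5SA library of batch 2, which was highest for Ccl2, Ccl7, Lif and Csf1, was also highest here. Of the 13 tested, 3 were called higher and 0 lower in YAP5SA than in GFP, with a median of 0.66. Among all genes tested, 12.8% were higher and 9.18% lower against GFP, and 9.0% higher against YAP6SA. The 3 were the lysozyme gene Lyz2 (1.43, edgeR FDR 0.00611), the complement gene C1qa (0.96, edgeR FDR 0.0228) and Mertk, a receptor for the uptake of dead cells (0.77, edgeR FDR 0.0251). Without GFP replicate 2 none of them held (edgeR FDR 0.0858 to 0.195), without GFP replicate 1 C1qa (0.135) and Mertk (0.143) did not, and without YAP5SA replicate 2 C1qa (0.105) did not. Without the batch term, C1qa (0.14) and Mertk (0.0815) were lost as well. Against YAP6SA 1 was called, Mertk (0.89, edgeR FDR 0.0193), which was lost without YAP6SA replicate 1 (0.126) or 2 (0.215) and without the batch term (0.0701). With the likelihood ratio test, and likewise without the filter, 5 of the list were called higher against GFP and 3 against YAP6SA. Over all genes, the likelihood ratio test called 2063 and 1608 higher, of 13323, and the fit without the filter 1991 and 1591, of 27396. The log2 fold change of YAP5SA against GFP was above 0 for all 13 tested and for 14 of all 15 without the filter, which Fcgr1, an antibody receptor with 1.05 and 0.718 CPM in GFP and 3.51 and 2.91 in YAP5SA, passed in YAP5SA only. Adgre1 (F4/80) had 14 to 58 counts and missed the filter, and its CPM was higher in YAP5SA than in GFP by 0.37 and 0.62 on the log2 scale within the batches. Cd163, a scavenger receptor, also missed the filter and lay lower in YAP5SA than in both other groups, with 16 and 13 counts in GFP, 26 and 11 in YAP6SA, and 2 and 2 in YAP5SA. Ptprc, carried by all leukocytes, was at 7.20 and 13.6 CPM in GFP, 11.2 and 12.8 in YAP6SA, and 13.3 and 10.4 in YAP5SA. Summed, the macrophage markers of YAP5SA were 1.49-fold and 1.57-fold those of GFP in batches 1 and 2, where Ccl2 was 5.51-fold and 13.2-fold, Ccl7 4.10-fold and 14.8-fold, Lif 4.33-fold and 10.2-fold, and Csf1 0.757-fold and 2.29-fold. Cxcl12 was the closest of the called members to these marker ratios, at 2.25-fold in batch 2 and a log2 difference of 0.97 in batch 1. The part of macrophage RNA in these results was not tested.

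Epicardial markers summed to 41.7 and 31.9 CPM in GFP, 58.2 and 32.2 in YAP6SA, and 127 and 190 in YAP5SA, and Wt1, a transcription factor of the epicardium, made up 92.9 and 155 CPM of the YAP5SA sums. The YAP5SA sums were 3.05-fold and 5.96-fold those of GFP in batches 1 and 2, beside the folds given above for Ccl2, Ccl7 and Lif. Of the 6 markers, 5 passed the filter, with a median of 0.73 for YAP5SA against GFP. Krt19 missed it in GFP and came in through YAP6SA and YAP5SA, where its mean was higher. Wt1 rose by 3.17 against GFP and 2.69 against YAP6SA (edgeR FDR 0.000232 and 0.000597), and Krt19, a keratin, by 2.21 against GFP (edgeR FDR 0.0291), which was lost without GFP replicate 2 (1.86, edgeR FDR 0.207) or YAP5SA replicate 2 (0.89, 0.353). All 5 tested had a value above 0, among them Upk3b, a uroplakin, at 5.63 and 4.64 CPM in GFP and 9.14 and 7.73 in YAP5SA (0.69 and 0.73 within the batches). Msln, a mesothelial surface protein, was at 15.5 and 9.47 CPM in GFP and 15.6 and 9.75 in YAP5SA. The fibroblast list, led by Col3a1, summed to 1450 and 907 CPM in GFP, 1910 and 1040 in YAP6SA, and 1590 and 963 in YAP5SA, higher in batch 1 than in batch 2 in every group. Endothelial markers, led by Egfl7, summed to 519 to 788 CPM and mural markers, led by Cspg4, to 185 to 260 CPM, again higher in batch 1, and in these 3 lists edgeR called 0 genes in any comparison. At an unadjusted p under 0.05, YAP5SA against GFP had 2 fibroblast genes higher and 1 lower, 1 mural gene higher (1 mural gene was called with the likelihood ratio test, and 1 without the filter), and 0 endothelial genes, and YAP6SA against GFP had 4 fibroblast genes and 1 mural gene higher. In that comparison all 10 fibroblast markers (median 0.37) and all 6 mural markers (median 0.27) had a log2 fold change above 0, beside 0.48 for Cxcl12, and 7 and 2 did in YAP5SA against GFP (medians 0.18 and -0.084). In YAP5SA against YAP6SA, 0 fibroblast and 0 mural markers did (medians -0.16 and -0.32), beside 0.59 for Cxcl12. DESeq2 called 0 genes of these lists. The 8 markers of granulocytes and lymphocytes summed to 3.64 to 10.3 CPM, and none passed the filter. At these low levels, their YAP5SA sums were 0.673-fold and 0.583-fold those of GFP in batches 1 and 2. In YAP5SA, Ccl2, Ccl7, Lif and the macrophage and epicardial sums were higher in batch 2 than in batch 1, whereas Cxcl12 differed little between the batches. In GFP and YAP6SA, Cxcl12 was higher in batch 1. So were Csf1, Cxcl1, Cx3cl1, Il33 and the fibroblast, endothelial, mural and epicardial sums. Whether any of these cells contributed to the members' counts was not tested.

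**Figure D5:**
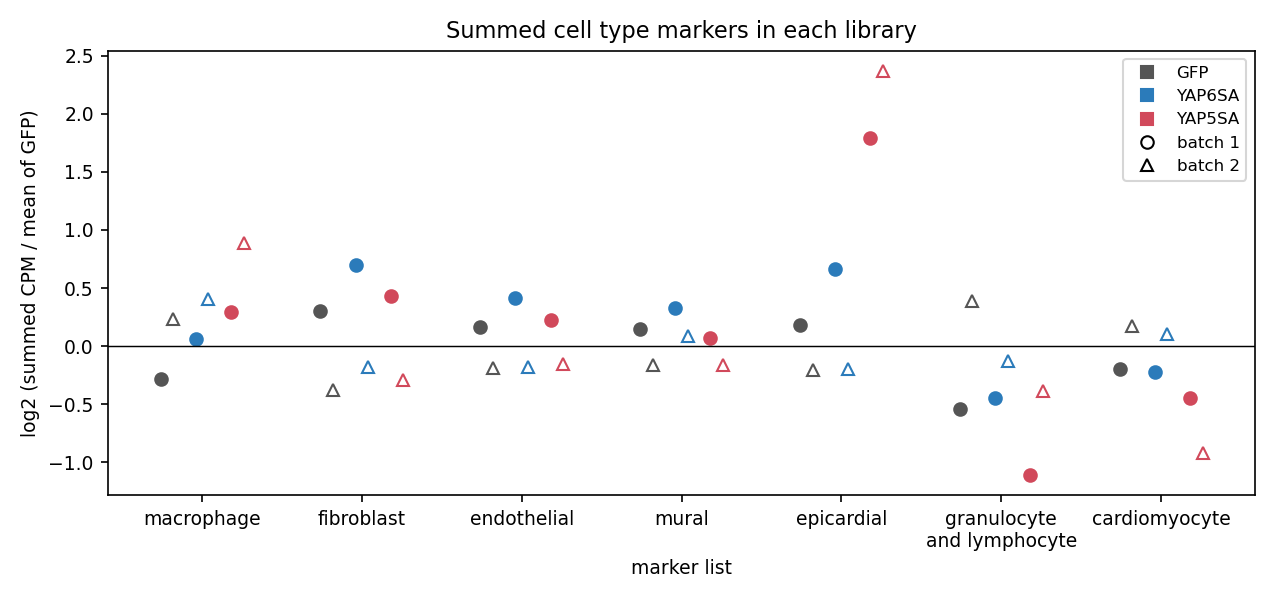
Log2 of the summed CPM of each cell type marker list relative to its mean in GFP, in each library (colour, group; filled circle, batch 1; open triangle, batch 2). Epicardial markers lie highest and cardiomyocyte markers lowest in YAP5SA, macrophage markers lie highest in YAP5SA of batch 2, and the fibroblast, endothelial and mural lists lie higher in batch 1 than in batch 2 within each group.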

How the data were processed

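Poly-A RNA of PCM-1-bound nuclei was sequenced. Per the labels and the methods of the study, reads were mapped with STAR to mm10 (GRCm38, Ensembl annotation). The authors deposited whole-number read counts per gene, with no normalization or filter; reads mapped to several places (2.90% to 4.19%), outside genes (9.43% to 9.84%), ambiguous between genes (5.79% to 6.31%) or unmapped (3.03% to 3.63%) were left out of library sizes here. Symbols, coordinates and exon lengths came from GENCODE M21, in which 54495 of 54532 IDs were found.

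The model (group and batch terms, quasi-likelihood test, TMM scaling) was run with edgeR 4.0.16 on R 4.3.3, since the study used edgeR with a batch covariate. The replicate number in the labels was taken as the batch number. The methods of the study give a batch covariate and do not say which libraries shared a batch. The deviations of libraries of a batch from their group means correlated by 0.365 between GFP and YAP6SA, 0.174 between YAP6SA and YAP5SA and 0.0977, near 0, between GFP and YAP5SA. The chi-square over its degrees of freedom between replicates was 27.7, 31.5 and 43.6, so none was a copy; p-values measure the spread between these libraries. Differences within a batch and correlations between genes are of log2(CPM + 0.1).

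The members and lists were chosen with earlier results of these data known. Named genes were all members, every list gene called in at least 1 comparison and, for Csf1 and each called member, the 3 genes with the highest correlation; receptors, defining markers and chemokines given by their levels were named besides. Alternatives were RLE scaling, no filter, the likelihood ratio test, DESeq2 1.42.0, no batch term, 4 libraries, and each library left out, where a lone library is assumed to vary like the others. The pipeline was tested on simulated data.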

Additional observations from a re-analysis of the deposited data

Results flagged for a closer look

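The difference of Csf1 between YAP5SA and GFP went down in batch 1 (-0.41 on the log2 scale) and up in batch 2 (1.19), so the batches were 1.6 apart. With a single library of each group in a batch, this difference was not tested. Cxcl1 likewise was lower in YAP5SA than in YAP6SA in batch 1 (-0.57) and higher in batch 2 (1.07), 1.63 apart, which was not tested either and rests on 19 to 55 counts a library.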

How the results depend on the processing

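The YAP6SA count varied with the fit and the libraries in it: 6 genes were called against GFP (790 at an unadjusted p under 0.05), 0 without the replicate block (518 unadjusted), 55 with DESeq2, 82 with the likelihood ratio test, 145 without the filter and 276 with 4 libraries, with 6 to 213 when 1 library was left out. Members called there were 0 (2 unadjusted), 1 without the filter (Csf1), 2 with 4 libraries (Csf1 and Cxcl12), and 0 to 1 with a library left out (Csf1, without YAP5SA replicate 1 or 2). For YAP5SA against GFP, 2931 genes were called, and 738 (without GFP replicate 2) to 4863 (without YAP5SA replicate 1) with a library left out, while 4 to 6 members were. For YAP5SA against YAP6SA, 1956 genes were called, 1152 without the replicate block, and 396 (without YAP6SA replicate 2) to 4160 (without YAP5SA replicate 1) with a library left out, while 2 (without YAP6SA replicate 2 or YAP5SA replicate 2) to 5 members were. The sign turned in these log2 fold changes, none of them called in the fit of all libraries, given over libraries left out: Csf1, YAP5SA against GFP, -0.41 to 1.22; Ccl2, YAP6SA against GFP, -0.28 to 1.30; Lif, YAP6SA against GFP, -1.10 to 0.20; and Cxcl1, YAP5SA against YAP6SA, -0.72 to 1.33. The cause was not tested. Over all alternatives, 187 log2 fold changes of members kept their direction and side of the threshold, 17 passed it newly, 6 fell short of it and 5 turned. The calls of Ccl2, Lif and, against GFP, Ccl7 and Cxcl12 held in every alternative. Of 26 list genes called in YAP5SA against GFP, 6 held without GFP replicate 2 and 11 without YAP5SA replicate 2, and of 15 against YAP6SA, 6 held without YAP6SA replicate 2 and 8 without YAP5SA replicate 2. Without the replicate block, 19 of the 26 and 12 of the 15 held, and no call of a member changed. Il34, Cx3cl1, Il6 and Il33 had at most 45 counts a library.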
